A study of Mus musculus with 2 samples.

Results

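Promoters of long intergenic noncoding RNAs (lincRNAs) that lie away from protein-coding genes were examined in DNase-seq data of mouse frontal cortex. A transcription start site (TSS) was a member when its GENCODE M21 gene had the type lincRNA, it lay on an autosome, and it was over 5 kb from every protein-coding TSS in the mm10 build. The rule used the annotation alone and no measured value. It gave 6239 TSSs of 4536 genes among 125895 autosomal TSSs of any gene type. The classes set beside them were 90265 protein-coding TSSs and 932 lincRNA TSSs within 5 kb of a protein-coding one. Distal antisense TSSs (1797), distal processed pseudogene TSSs (7946) and distal TEC TSSs (2436; TEC is GENCODE's type for transcripts still to be tested) served the same end.

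The series holds 1 group of 2 DNase-seq libraries, replicates 1 and 2, made from the frontal cortex of B6CASTF1/J females at an age of 14 days, a first-generation cross of the strains C57BL/6 and CAST. No other genotype, treatment or age was sampled, so no contrast between conditions exists. The replicates have separate biosamples and 1 shared donor label, and a label of both replicates includes an unexplained 3x. So it is not known whether animals were pooled, and differences between the replicates may in part be technical. DNase-seq maps open chromatin by the cuts that the nuclease DNase I makes where DNA is not wrapped in nucleosomes. Each library has its own list of peaks (stretches with many cuts), each with the authors' signal, called strength here, and its own list of footprints (short stretches inside open chromatin that were cut less than their surroundings). Replicate 1 has 93641 peaks and 234094 footprints, and replicate 2 has 66196 peaks and 154015 footprints. A TSS was called open when a peak midpoint lay within 500 bp of it. The promoters of 12 of 12 autosomal cortex marker genes were open in replicate 1 and those of 6 of 12 in replicate 2, against 4 of 11 and 0 of 11 (allowing up to 27.3%) for markers of other tissues, whose peaks in replicate 1 had strengths of at most 0.409. Over all protein-coding genes 64.5% and 59.8% were open, so the cortex markers stood above that share in replicate 1 and below it in replicate 2.

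A lincRNA is a spliced or unspliced RNA without a long open reading frame, usually made by RNA polymerase II from a promoter of its own. Some act in the nucleus, as Malat1 and Neat1 do in nuclear bodies, some carry microRNAs or small nucleolar RNAs in their introns or exons, and for most no function is known. Their promoters are often low in CpG, and many of the transcripts are restricted to few tissues, brain among them.

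The sequences of 10 peaks show chosen open distal lincRNA members at the level of bases. Their replicate 1 strengths ran from 1.41 to 9.42, all above the median of 0.780 for open members, so they are not typical ones. The first 5 are among the 7 strongest members (Gm42418, at the top, lies in a sequence related to ribosomal RNA and is not shown). They are followed by Malat1, by 1700020I14Rik (Cyrano, known for triggering decay of the microRNA miR-7), by the small nucleolar RNA host Snhg12, by the neuronal lincRNA Miat and by Mir124-2hg, host of the neuronal microRNA miR-124. All are read 5′ to 3′ along the gene's strand from RefSeq's GRCm38 (mm10) reference, which is the C57BL/6J genome and not the cross, and each covers the replicate 1 peak, or its central 300 bp where the peak is longer. Capitals mark bases inside a footprint of both libraries. The stretch of B230208H11Rik does not reach its TSS, and it and that of Gm11527 hold a tRNA gene.
Gm15408, chr5:149006801-149007020, plus strand: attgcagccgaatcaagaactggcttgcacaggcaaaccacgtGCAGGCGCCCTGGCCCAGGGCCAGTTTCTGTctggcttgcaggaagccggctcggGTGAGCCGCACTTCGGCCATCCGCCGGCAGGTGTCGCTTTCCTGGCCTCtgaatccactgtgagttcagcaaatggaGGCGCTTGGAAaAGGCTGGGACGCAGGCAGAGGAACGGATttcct
B230208H11Rik, chr10:12922561-12922780, minus strand: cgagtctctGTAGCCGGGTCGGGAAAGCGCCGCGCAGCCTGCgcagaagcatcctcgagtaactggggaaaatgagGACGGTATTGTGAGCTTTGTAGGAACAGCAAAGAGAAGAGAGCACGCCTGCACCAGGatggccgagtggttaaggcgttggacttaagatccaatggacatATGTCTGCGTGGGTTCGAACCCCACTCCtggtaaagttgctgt
Tmem250-ps, chr2:26140401-26140700, minus strand: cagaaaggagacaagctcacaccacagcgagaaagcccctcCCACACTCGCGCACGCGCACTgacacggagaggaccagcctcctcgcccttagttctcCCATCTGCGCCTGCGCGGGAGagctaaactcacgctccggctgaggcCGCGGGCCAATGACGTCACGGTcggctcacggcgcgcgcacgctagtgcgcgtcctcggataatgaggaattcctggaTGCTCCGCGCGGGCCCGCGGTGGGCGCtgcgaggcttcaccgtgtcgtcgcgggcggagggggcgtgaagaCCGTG
D330050G23Rik, chr2:116899961-116900160, plus strand: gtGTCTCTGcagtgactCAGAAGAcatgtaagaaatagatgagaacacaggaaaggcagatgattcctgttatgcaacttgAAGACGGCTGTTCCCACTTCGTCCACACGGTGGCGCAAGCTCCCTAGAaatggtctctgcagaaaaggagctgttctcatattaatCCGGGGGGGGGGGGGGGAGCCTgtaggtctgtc
Gm11527, chr11:95859141-95859380, minus strand: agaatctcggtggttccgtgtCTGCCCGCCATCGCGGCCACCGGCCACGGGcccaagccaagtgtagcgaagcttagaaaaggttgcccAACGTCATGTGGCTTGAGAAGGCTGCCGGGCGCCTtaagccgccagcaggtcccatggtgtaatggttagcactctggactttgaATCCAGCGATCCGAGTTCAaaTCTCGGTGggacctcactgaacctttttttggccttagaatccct
Malat1, chr19:5802601-5802780, minus strand: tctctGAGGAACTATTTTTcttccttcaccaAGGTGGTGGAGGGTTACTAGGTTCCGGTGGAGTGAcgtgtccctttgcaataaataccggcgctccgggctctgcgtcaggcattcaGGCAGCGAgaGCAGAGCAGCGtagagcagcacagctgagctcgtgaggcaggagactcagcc
1700020I14Rik, chr2:119594141-119594380, plus strand: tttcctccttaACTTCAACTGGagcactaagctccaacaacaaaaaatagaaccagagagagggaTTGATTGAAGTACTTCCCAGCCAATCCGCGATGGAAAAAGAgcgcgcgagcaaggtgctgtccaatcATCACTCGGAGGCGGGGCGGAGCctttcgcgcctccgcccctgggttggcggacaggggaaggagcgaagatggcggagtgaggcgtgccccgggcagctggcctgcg
Snhg12, chr4:132308521-132308760, plus strand: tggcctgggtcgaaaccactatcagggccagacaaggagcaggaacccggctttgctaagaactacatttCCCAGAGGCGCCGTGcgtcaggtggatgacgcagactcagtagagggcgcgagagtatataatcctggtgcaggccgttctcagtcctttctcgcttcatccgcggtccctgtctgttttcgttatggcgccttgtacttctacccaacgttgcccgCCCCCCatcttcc
Miat, chr5:112228751-112229050, minus strand: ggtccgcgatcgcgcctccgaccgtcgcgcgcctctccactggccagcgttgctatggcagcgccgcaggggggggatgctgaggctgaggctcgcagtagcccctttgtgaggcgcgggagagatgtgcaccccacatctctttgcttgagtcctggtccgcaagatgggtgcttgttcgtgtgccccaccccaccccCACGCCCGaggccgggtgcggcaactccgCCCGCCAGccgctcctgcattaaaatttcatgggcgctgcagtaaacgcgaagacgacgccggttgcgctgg
Mir124-2hg, chr3:17793761-17794060, plus strand: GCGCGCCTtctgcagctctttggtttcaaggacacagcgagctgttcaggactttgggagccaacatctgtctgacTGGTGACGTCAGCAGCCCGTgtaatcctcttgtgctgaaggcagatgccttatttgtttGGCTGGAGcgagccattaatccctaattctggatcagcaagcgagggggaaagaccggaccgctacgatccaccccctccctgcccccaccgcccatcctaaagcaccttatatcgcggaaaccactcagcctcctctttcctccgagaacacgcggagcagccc

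The footprinted share of these stretches varied. In Gm15408, 119 of 220 bases lay in a footprint of both libraries, in B230208H11Rik 118 of 220, in D330050G23Rik 84 of 200 and in Malat1 68 of 180. In Snhg12 it was 21 of 240 bases, in Mir124-2hg 36 of 300 and in Miat 16 of 300. Tmem250-ps had 39 CG pairs in 300 bases and Miat 31 of 300, against 5 in the 200 bases of D330050G23Rik. The cAMP-response motif TGACGTCA stands within or across a footprint of both libraries in Tmem250-ps and Mir124-2hg. The motif GGGCGG of SP and KLF factors, searched on both strands, touches such a footprint in 1700020I14Rik, Snhg12 and Miat.

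Of the 6239 distal lincRNA TSSs, 1064 were open in replicate 1 and 783 in replicate 2, which is 17.1% (95% Wilson interval 16.1 to 18) and 12.6% (11.8 to 13.4). Protein-coding TSSs were open at 50.9% in replicate 1 and 46.7% in replicate 2, and autosomal bases over 5 kb from protein-coding TSSs had a peak midpoint within 500 bp at 2.29% and 1.49%. The lincRNA share was thus 0.335 times the protein-coding share in replicate 1 and 0.269 times in replicate 2 (0.302 ± 0.0466, SD, n = 2). It was 7.46 and 8.41 times the share of distal bases (7.93 ± 0.674, SD, n = 2). Both libraries gave the same order. Intervals cover counting error over TSSs alone, and with 2 libraries of 1 group no p-value was computed.

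Open in both libraries were 737 distal lincRNA TSSs, or 11.8%, against 45.9% of protein-coding TSSs and 1.26% of distal bases. Open in at least 1 library were 1110, or 17.8%. By gene, 508 of 4536 lincRNA genes (11.2%) had an open TSS in both libraries, against 12355 of 20807 protein-coding genes (59.4%). Of the lincRNA genes, 216 were open in replicate 1 only, 31 in replicate 2 only and 3781 in neither. The members are not independent of each other: the open TSSs lay on 745 distinct peaks in replicate 1 and 547 in replicate 2, and alternative TSSs of a gene can share a peak. Open protein-coding TSSs shared peaks as well, with 45961 on 16404 distinct peaks in replicate 1 and 42109 on 14310 in replicate 2.

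The other classes framed this share. lincRNA TSSs within 5 kb of a protein-coding TSS were open at 52.0% and 46.2%, close to protein-coding TSSs themselves. Distal antisense TSSs were open at 13.1% in replicate 1 and 9.40% in replicate 2, distal TEC TSSs at 5.50% and 3.65%, and distal processed pseudogenes at 1.93% and 1.13%. In each library the distal lincRNA share stood above these 3 distal classes, with Wilson intervals that did not overlap. The intervals treat TSSs as independent, though several can share a peak, so they are given as a description.

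**Figure D1:**
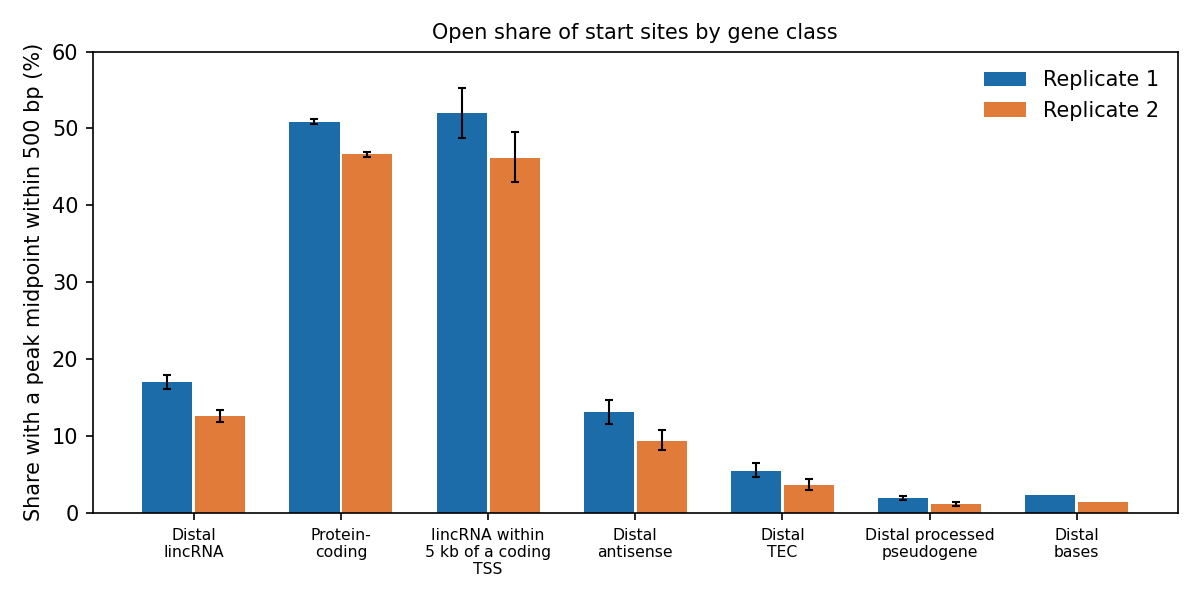
Share of TSSs with a peak midpoint within 500 bp (y axis, %) for each gene class and for distal bases, by replicate; error bars are 95% Wilson intervals over TSSs, and distal bases were counted in full. Distal lincRNA TSSs stand at 17.1% and 12.6%, below protein-coding TSSs (50.9% and 46.7%) and above distal bases (2.29% and 1.49%).

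Peaks gathered at the lincRNA TSSs themselves. In the 100 bp just upstream, distal lincRNA TSSs had 53.9 peak midpoints per 1000 TSSs in replicate 1 and 41.0 in replicate 2, against 5.13 and 2.89 in the last 100 bp of a 3000 bp flank downstream. The same bins held 212.8 and 183.2 per 1000 at protein-coding TSSs, against 5.93 and 4.20. Among open lincRNA TSSs the strongest peak's midpoint had a median offset of -42.5 bp in replicate 1 and -48.0 bp in replicate 2, that is, upstream. At protein-coding TSSs it was -62.0 and -67.0 bp. The midpoint lay upstream of 63.3% and 65.5% of open lincRNA TSSs, against 73.9% and 74.3% of open protein-coding TSSs. It lay within 150 bp of 57.9% and 57.2% of them, against 65.6% and 64.0%. Just inside the 500 bp limit, 83 members in replicate 1 and 60 in replicate 2 had their nearest midpoint 400 to 500 bp away, and just outside it, 53 and 47 had it 500 to 600 bp away.

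**Figure D2:**
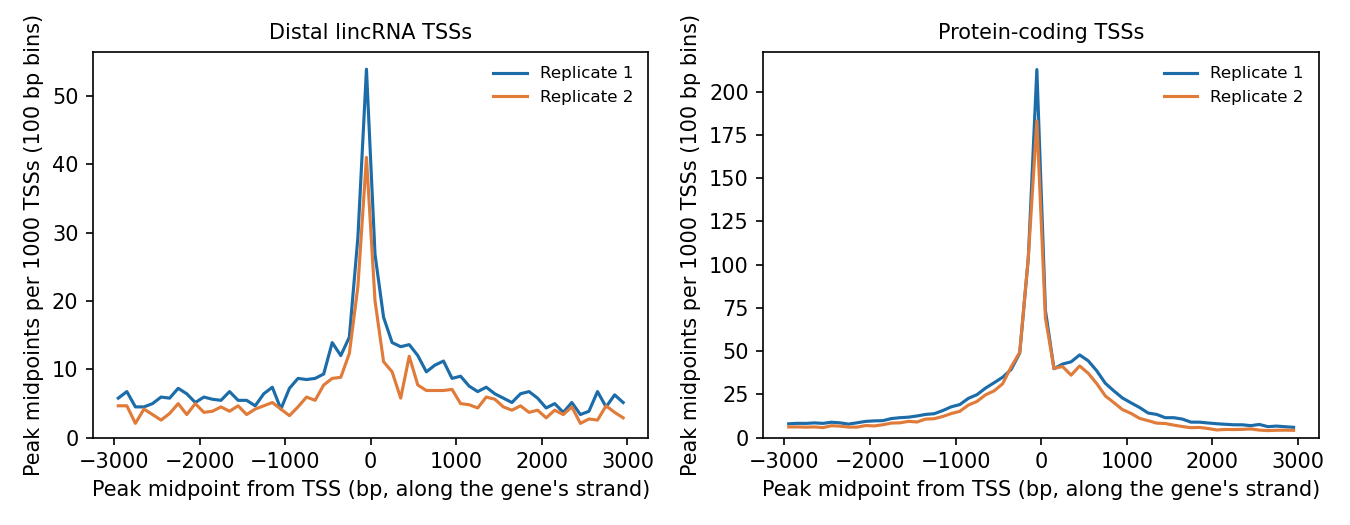
Peak midpoints per 1000 TSSs (y axis, separate scale in each panel) in 100 bp bins by distance from the TSS along the gene's strand (x axis, bp), for distal lincRNA TSSs (left) and protein-coding TSSs (right), by replicate. Both classes peak in the bin just upstream of the TSS, at 53.9 and 41.0 per 1000 for distal lincRNAs and 212.8 and 183.2 for protein-coding genes.

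The open lincRNA promoters were weaker than the open protein-coding ones. Their median strength was 0.780 in replicate 1 and 0.858 in replicate 2, against 2.73 and 1.91 for protein-coding TSSs and 0.663 and 0.712 for all peaks of the library. The ratio of medians, lincRNA over protein-coding, was 0.286 and 0.448 (0.367 ± 0.115, SD, n = 2). The central 50% of open lincRNA TSSs ran from 0.469 to 1.56 in replicate 1 and from 0.549 to 1.35 in replicate 2. The 90th percentiles were 3.00 and 2.28, both above the protein-coding median of the same library. lincRNA TSSs near protein-coding ones had medians of 2.28 and 1.73. The authors normalized strength for read depth, but its scale is not given, so a ratio between the libraries is a ratio of deposited values and is not read as a difference in openness.

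Strength ordered the members alike in both libraries. Over the 737 TSSs open in both, Spearman's rho between the libraries was 0.926 and Pearson's r of log2 strength 0.937, given as a description because many of these TSSs share a peak. The median ratio of the deposited values, replicate 1 over replicate 2, was 1.26, against 1.55 at protein-coding TSSs, so the shift between the libraries was not the same in both classes. Replicate 2 shared 94.1% of its open lincRNA TSSs with replicate 1, and replicate 1 shared 69.3% of its own with replicate 2. For protein-coding TSSs the shares were 98.3% and 90.1%. TSSs open in replicate 1 only had a median strength of 0.402, against 1.13 in that library for those open in both. Among open lincRNA TSSs in the lowest strength quartile of all replicate 1 peaks, 21.4% were open in replicate 2 as well, and in the highest quartile 97.4%.

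**Figure D3:**
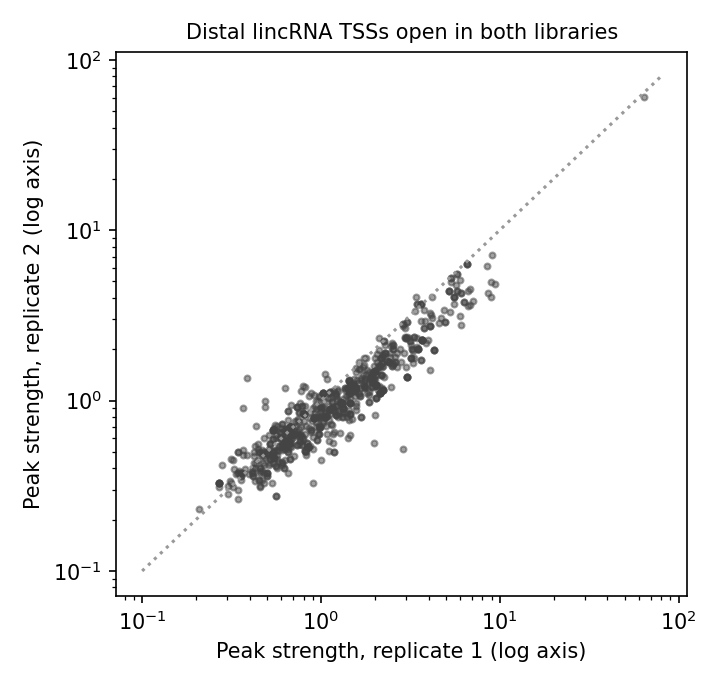
Peak strength in replicate 2 (y axis, log scale) against replicate 1 (x axis, log scale) for the 737 distal lincRNA TSSs open in both libraries, 1 point each; the dotted line marks equal deposited values. Most points lie below the line, with a median ratio of 1.26, and Gm42418 stands apart at 63.9 and 60.1.

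Footprints accompanied most open members. A footprint lay within 500 bp of 949 of 1064 open lincRNA TSSs in replicate 1 (89.2%) and 671 of 783 in replicate 2 (85.7%), against 97.5% and 96.3% of open protein-coding TSSs. The share followed strength: by quartiles of all peaks from weak to strong it was 64.2%, 86.9%, 98.5% and 100% for lincRNAs in replicate 1, and 67.9%, 87.7%, 95.8% and 99.9% for protein-coding TSSs. In replicate 2 the lincRNA shares were 60.2%, 71.3%, 98.0% and 100%, against 58.2%, 82.5%, 97.0% and 99.9%. Within a quartile the classes thus differed by less than over all open TSSs, except in the second quartile of replicate 2. In the strongest quartile the mean number of footprints was still lower at lincRNAs, 5.43 in replicate 1 and 4.71 in replicate 2, against 7.11 and 6.45 at protein-coding TSSs.

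TSSs without a peak were mostly without any called cutting. Of the 5175 closed lincRNA TSSs of replicate 1, 127 (2.45%) had within 500 bp a stretch of bases with a deposited false discovery rate (FDR) below 0.05, and of the 5456 of replicate 2, 111 (2.03%). Closed protein-coding TSSs had one at 4.64% and 4.58%, and distal bases without a peak at 0.802% and 0.558%.

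GC content went with openness in both classes. Distal lincRNA TSSs whose 300 bp (250 before to 50 after the TSS) held under 40% GC were open at 4.71% in replicate 1 and 3.23% in replicate 2. At 40 to 50% GC they were open at 11.5% and 7.80%, at 50 to 60% at 25.8% and 19.2%, and at 60% GC and over at 63.1% and 54.9%. The protein-coding shares in the same bins were 3.72%, 18.4%, 48.1% and 88.5% in replicate 1 and 2.92%, 15.8%, 43.4% and 82.6% in replicate 2. In the lowest bin the lincRNA share was the higher one, with overlapping intervals, and in the other 3 bins the protein-coding share was higher in both libraries. The classes also differ in makeup: 3.73% of distal lincRNA TSSs had 60% GC or more, against 34.7% of protein-coding TSSs. With protein-coding TSSs weighted to the GC bins of the lincRNA TSSs, their open share was 28.4% in replicate 1 and 25.3% in replicate 2, and the lincRNA share was 0.60 and 0.497 times it.

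**Figure D4:**
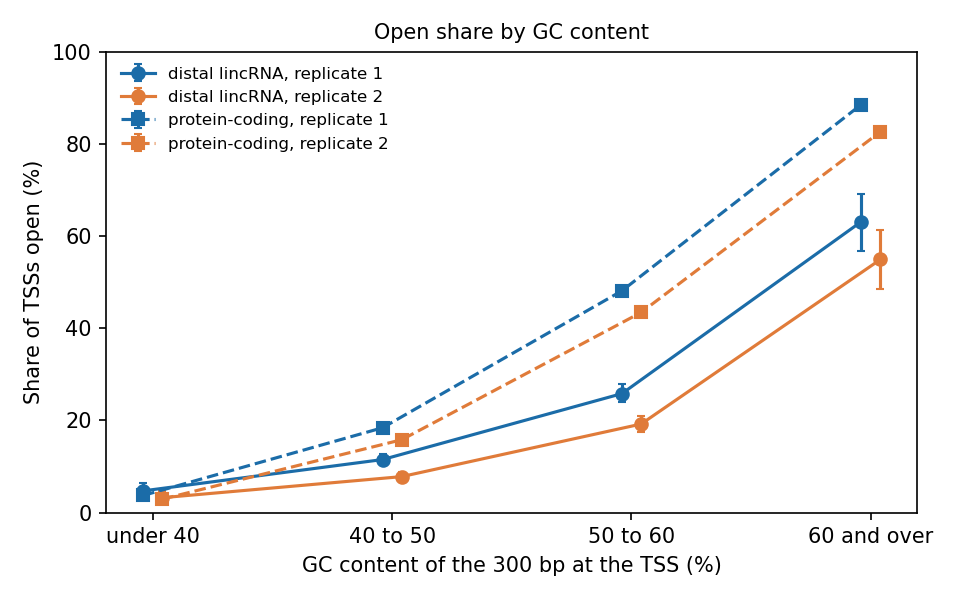
Share of TSSs open (y axis, %) by GC content of the 300 bp at the TSS (x axis, %), for distal lincRNA TSSs (circles, solid lines) and protein-coding TSSs (squares, dashed lines) by replicate; error bars are 95% Wilson intervals over TSSs. Open shares climb with GC in both classes, to 63.1% and 54.9% for distal lincRNAs and 88.5% and 82.6% for protein-coding genes.

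Members open in both libraries had a median GC of 52.0% and a median CpG ratio (observed over expected) of 0.418, against 47.0% and 0.20 for members open in neither. For protein-coding TSSs these were 62.7% and 0.803, against 48.0% and 0.223. A CpG ratio over 0.6 was found at 28.4% of lincRNA TSSs open in both and 3.70% of those open in neither, against 78.6% and 5.74% for protein-coding TSSs. So most open distal lincRNA promoters were not CpG-rich by this measure, while most open protein-coding ones were.

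Sequence motifs, searched as exact letters on both strands of the 300 bp, differed between open and closed promoters. TGACGTCA, the site of CREB factors, was in 4.48% of lincRNA promoters open in both libraries and 0.546% of those open in neither, and over all promoters in 1.06% of distal lincRNA and 1.96% of protein-coding ones. In protein-coding promoters it was in 3.73% of those open in both and 0.417% of those open in neither. The other motifs are given likewise for lincRNA promoters open in both and in neither, and in brackets for all distal lincRNA and all protein-coding promoters. GGGCGG was in 28.4% and 6.32% (9.55% and 38.7%), and the ETS site CCGGAAG in 10% and 2.73% (3.77% and 10.5%). A core of the CTCF site was in 11% and 4.13% (5.31% and 11%). Other motifs ran the other way: TATAAA was in 11.8% and 17.9% (16.9% and 11.4%) and TGANTCA, the AP-1 site, in 7.33% and 11.4% (10.9% and 6.65%). CAGCTG, an E-box, was in 20.8% and 18.3% (18.8% and 16.4%). GC content moves with these letters, and its part in the differences was not tested. A match describes letters and is not a bound site.

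Among members, openness went with the kind of annotation. TSSs of genes with a symbol of their own, other than a Gm number, a Rik clone name or an accession, were open at 31.5% in replicate 1 and 22.7% in replicate 2. Rik-named genes stood at 21.7% and 16%, and Gm-numbered genes, the largest set with 3900 TSSs, at 14.2% and 10.6%. Members with a RefSeq long noncoding RNA start within 100 bp were open at 22.3% and 15.7%, against 14.3% and 10.9% for those without. Members whose 300 bp were over 50% repeat-masked were open at 2.21% and 1.75%, against 19.4% and 14.3% for the rest. Single-exon transcripts (18.1% and 12.5%) and those with more exons (17% and 12.6%) lay close together.

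Open shares were highest next to protein-coding TSSs. lincRNA TSSs within 500 bp of a protein-coding TSS were open at 82.0% and 73.7%, and those at 500 to 5000 bp at 28.5% and 24.7%. Just outside the 5 kb limit, at 5 to 6 kb, 71 members were open at 21.1% and 18.3%, and just inside it, at 4 to 5 kb, 97 TSSs at 23.7% and 19.6%. At 6 to 10 kb, 306 members were open at 17% and 11.1%, below those farther out at 10 to 50 kb. Members at 10 to 50 kb, 2123 TSSs, were open at 19.8% and 15.3%. Beyond 100 kb, 2500 members were open at 15.1% and 10.2%. By chromosome, shares in replicate 1 ran between 9.41% on chromosome 8 and 21.4% on chromosome 9, and in replicate 2 between 4.58% on chromosome 8 and 18.3% on chromosome 6. Members inside a protein-coding gene body were 190, open at 15.3% and 12.1%, against 17.1% and 12.6% outside.

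The strongest members were ranked by the mean of their strength ranks in both libraries. At the top stood Gm42418, a single-exon gene on chromosome 17 whose TSS lies in Rn18s-rs5, a RefSeq pseudogene related to ribosomal RNA of the small subunit. Its peak reached 63.9 in replicate 1 and 60.1 in replicate 2, the highest strength of all peaks of either library, and 1 and 3 footprints. Reads of the many ribosomal RNA gene copies cannot be told apart from reads of this locus in the files used here, so the value is uncertain as a measure of this promoter. The next highest strength among members was 9.42 in replicate 1 and 7.15 in replicate 2.

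Gm15408 on chromosome 5 followed, with strengths of 9.10 in replicate 1 and 7.15 in replicate 2, its TSS 11815 bp from the nearest protein-coding one. B230208H11Rik had 8.47 and 6.20, and its peak lay 419 bp downstream of the TSS at a tRNA gene. Tmem250-ps had 9.42 and 4.86, with a peak midpoint 30 bp upstream of the TSS in replicate 1 and at the TSS in replicate 2. RefSeq starts an mRNA within 500 bp of it, so its distance from coding genes holds in GENCODE's annotation and not in RefSeq's. D730045B01Rik had 8.91 and 4.97, at a peak 471 and 441 bp downstream of a TSS that lies inside a protein-coding gene body. D330050G23Rik had 6.53 and 6.36, with 3 of 3 TSSs open at the same peak.

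Gm11527, the other tRNA neighbour among the top 10, had 6.80 in replicate 1 and 4.53 in replicate 2. 1700096K18Rik had 8.58 and 4.29, and 6720427I07Rik 8.95 and 4.06, in promoters with a GC content of 74.0% for 1700096K18Rik and 73.7% for 6720427I07Rik. Malat1, the abundant nuclear speckle RNA, completed the top 10 with 5.78 and 5.55 at 2 of its 4 distal TSSs. Its peak lay 19 and 39 bp upstream of the TSS in 47.0% GC. The ratio of replicate 1 to replicate 2 ran between 1.03 (D330050G23Rik) and 2.21 (6720427I07Rik), on either side of the median of 1.26 over open members, and all 10 had the same strengths in the authors' shorter, stricter lists. The top 20 reached down to 5.31 in replicate 1 and 3.64 in replicate 2.

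**Figure D5:**
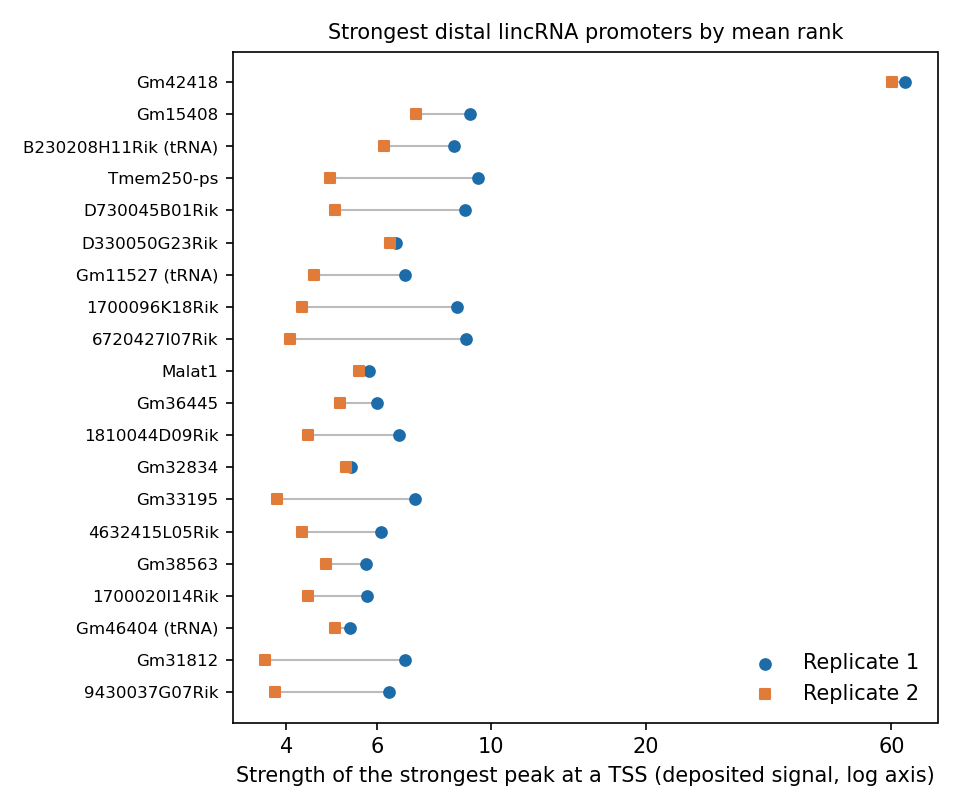
Strength of the strongest TSS peak (x axis, log scale) in replicate 1 (circles) and replicate 2 (squares) for the 20 distal lincRNA genes with the highest mean rank (y axis); tRNA marks those with a RefSeq tRNA gene within 500 bp. Gm42418 stands apart at 63.9 and 60.1, and the other 19 reach down to 5.31 in replicate 1 and 3.64 in replicate 2.

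Genes of transfer RNAs, made by RNA polymerase III from a promoter inside the gene, lay beside several strong members. RefSeq places a tRNA gene within 500 bp of 9 of the 6239 members, and 8 of the 9 were open in both libraries, with median strengths of 5.44 in replicate 1 and 3.65 in replicate 2. The 6230 other members were open in both at 11.7%. In all 8 the tRNA gene lay in the peak: B230208H11Rik (tRNA-Leu), Gm11527 (tRNA-Gln), Gm45605 (tRNA-Trp, 6.64 and 3.60), Gm11205 (tRNA-Thr, 5.57 and 3.71), Gm46404 (tRNA-Val, 5.31 and 4.97) and C230035I16Rik (tRNA-Ala, 2.87 and 2.73) among them. 4930477E14Rik and Gm26654 share 1 tRNA-Asn gene and its peak, at 1.19 and 0.497. Gm10685, beside a tRNA-His gene, was closed in both. Over the 386 autosomal tRNA genes of RefSeq, 67.9% and 64.2% were open, with median strengths of 3.30 and 2.77.

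In the sequences printed above, the tRNA gene spans bases 128 to 210 of the B230208H11Rik stretch and 138 to 209 of the Gm11527 stretch. The B box, an internal control element of tRNA genes, searched as GTTCNANNC on both strands, touches a footprint of both libraries in each of them. These letters are common and were found in 10.5% of all distal lincRNA promoters and 9.52% of protein-coding ones. Where a peak holds both a tRNA gene and a lincRNA TSS nearby, openness from either cannot be told apart. The comparison with tRNA genes was chosen after values were seen.

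Of 32 neural genes listed, 15 were members, and of these 11 had an open distal TSS in replicate 1 and 9 in both libraries. The background shares for genes were 16% in replicate 1, 11.9% in replicate 2 and 11.2% in both, over all 4536. A gene counted as open when any of its distal TSSs was open. Several listed genes have many, such as Rmst with 13 and Meg3 with 11, while all 4536 genes together have 6239. The part of this in the counts was not tested. The strongest was 1700020I14Rik (Cyrano), with 5.73 in replicate 1 and 4.41 in replicate 2. 9530059O14Rik had 4.31 and 1.98, Mir670hg 2.52 and 2.00, and C130071C03Rik, host of a miR-9 precursor, 2.09 and 1.16. Mir9-3hg, another miR-9 host, had 1.57 and 1.18, but no open TSS in the stricter list of either library, and C130071C03Rik had none in that of replicate 2. Meg3, the imprinted maternally expressed RNA, had 1.46 and 0.832 at 5 and 3 of 11 distal TSSs. Mir124-2hg had 1.45 and 1.22, Miat 1.41 and 1.19 with all 6 TSSs open in both, and Rmst, a neurogenic lincRNA, 0.502 and 0.489. Open in replicate 1 only were Mir124a-1hg at 1.49 and Mirg, a microRNA host of Meg3's imprinted region, at 0.268. Closed in both were Pantr1, Paupar, Gm2694 and A230006K03Rik.

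Of 31 widely expressed genes listed, 10 were members, and 9 of these were open in both libraries, beside 11.2% of all 4536 genes. Median strengths were 3.15 in replicate 1 and 1.80 in replicate 2. The count and the medians include Gm42418, whose value is uncertain as a measure of its promoter. Besides Gm42418 and Malat1, the small nucleolar RNA hosts Snhg12 (3.68 and 2.26), Snhg6 (3.17 and 1.78) and Snhg20 (2.14 and 1.11) were among the 9. Neat1, the scaffold of paraspeckles, had 3.15 and 2.25, and Lncpint 2.42 and 1.80. 2900097C17Rik (Norad, which binds Pumilio proteins) had 1.67 and 0.806, and Pvt1, the neighbour of Myc, 1.03 and 1.11. Mir17hg, host of the miR-17 cluster, was closed in both.

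Of 24 listed genes known from other tissues, 11 were members. Of these, 5 were open in replicate 1 and 1 in replicate 2, beside 16% and 11.9% of all 4536 genes. The count thus lay above the share of all genes in replicate 1 and near it in replicate 2. Dubr, known from muscle, was open in both at 2.02 and 1.24, with 5 of 5 TSSs. Open in replicate 1 only were Bvht (cardiac, 0.784), Trp53cor1 (0.576), H19 (0.409) and Gm14005 (0.382). The strengths of the last 3 were below the median of all replicate 1 peaks, and none of the 4 was in the stricter list. Closed in both were Hotair, Halr1, Carmn, Mir155hg, Chaer1 and Lncbate1. None of the 18 Platr genes, named for transcripts of pluripotent cells, was open in either library, which allows a share of up to 16.7% (3 counts of 18). The shares of all genes, 16% and 11.9%, lie within that limit, so the count of 0 does not set these genes apart. The lists were made with earlier results of these data known, and numbers of 10 to 18 member genes limit what their counts can show. The shares of all genes were not matched to the lists for the number of TSSs of a gene.

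Members open in 1 library only were mostly weak, with exceptions near the 500 bp limit. Of the 327 TSSs open in replicate 1 only, 19 (5.81%) were overlapped by a replicate 2 peak within the window, and 55 (16.8%) had FDR-called bases in replicate 2. Of the 46 open in replicate 2 only, 11 (23.9%) were overlapped by a replicate 1 peak and 17 (37.0%) had FDR-called bases. 4930478P22Rik, the strongest of replicate 1 only, had 4.41 there, and the nearest replicate 2 peak, at 5.50, had its midpoint 508 bp away. E130006D01Rik had 2.56 in replicate 1 and a replicate 2 peak of 1.38 at 536 bp. So both loci had a peak in each library, on either side of the limit. Mir124a-1hg had no such neighbour: 11 replicate 1 peaks and 0 replicate 2 peaks lay within 5 kb of its TSS. Gm35040 (1.44) likewise had 7 and 0, and neither gene had FDR-called bases in replicate 2. Gm11378 (1.11) had 1 and 0 peaks, but did have FDR-called bases in replicate 2. The strongest genes of replicate 2 only were weak, with 0.712 for Gm26656, 0.583 for Gm17750 and 0.497 each for 1200007C13Rik, Gm29266 and Gm35394. A replicate 1 peak of 0.931 had its midpoint 503 bp from the Gm29266 TSS, so this locus too had a peak in each library. Another replicate 1 peak, of 4.85, had its midpoint 545 bp from the Gm26656 TSS. It was the peak of Gm44066, which had its own replicate 2 peak of 3.41, and it did not overlap the replicate 2 peak of Gm26656.

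The genes with most footprints differed widely in strength, and Gm11527 was also among the 10 strongest. Over open lincRNA TSSs the mean number of footprints rose with strength quartile, from 1.07 to 5.43 in replicate 1 and from 0.902 to 4.71 in replicate 2. E130102H24Rik and Gm26901 each had 12 footprints within 500 bp of a TSS in both libraries, at strengths of 1.75 and 1.31 for E130102H24Rik and 5.55 and 4.03 for Gm26901. Gm3764 had 12 in replicate 1 and 11 in replicate 2, Gm9530 had 13 and 9, and Gm11527 had 10 and 11. The strength of the gene's strongest TSS peak was 1.77 and 1.34 for Gm3764, 3.99 and 2.28 for Gm9530, and 6.80 and 4.53 for Gm11527. For Gm3764 the replicate 2 value came from another TSS, with a peak midpoint 7751 bp downstream of the TSS of the replicate 1 peak. At the TSS of the 1.77 peak, replicate 2 had 1.20. Gm44066 tied with Gm11527 in the mean, with 13 and 8, at strengths of 4.85 and 3.41. Gm42418, the strongest by far, had 1 and 3, so the number of footprints did not follow strength at that locus.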

How the data were processed

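DNase-seq signal was taken from the deposited peak lists. Per the deposited notes, peaks, footprints and FDR stretches were called from each library's own alignments to mm10, and the authors normalized the peak signal for read depth. The aligner, callers, versions, filters and read depth were not given in the sources used here. Deposited FDR values (p-value scale) are all below 0.05, and the deposited footprint files hold 1 constant in their p-value column, so positions alone were used. Each library has a longer peak list, used throughout, and a shorter one, with 53068 peaks for replicate 1 and 36975 for replicate 2. The shorter list is called stricter here only because it holds fewer peaks. Strengths can differ between the lists, as for Gm3764 in replicate 1, with 1.79 in the shorter and 1.77 in the longer. How the lists differ in threshold is not stated.

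TSSs were the transcript starts of GENCODE M21, 1 for each position, on 19 autosomes, and 0 intervals ran beyond a chromosome's length. The strength of an open TSS was that of its strongest peak with a midpoint within 500 bp. Shares have 95% Wilson intervals, and a count of 0 is given the limit that 3 counts allow. Promoter windows ran from 250 bp before to 50 bp after the TSS. A base is repeat-masked where the reference prints it in lower case. RefSeq's GRCm38 annotation gave tRNA genes and other starts. Computation used numpy 2.4.6, scipy 1.17.1, pandas 2.3.3, pysam 0.24.0 and matplotlib 3.10.9, and the overlap functions equalled a direct count and bedtools on simulated data.

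Named were the 10 strongest genes by mean rank, the 5 strongest of each library alone, the 5 with most footprints (6 with a tie) and the listed genes. The members, lists and alternatives were chosen with earlier results of these data known. The printed sequences, the tRNA comparison, the distances to the other library's peaks and the GC-weighted ratio were chosen after values were seen. Alternatives were the stricter list, other windows, overlap in place of midpoints, gene 5′ ends, a 10 kb limit, other transcript sets, equal numbers of peaks, repeat masking and each library alone. There was 1 group, so no groups were compared by a test.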

Additional observations from a re-analysis of the deposited data

How the results depend on the processing

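Over all TSSs, the distal lincRNA share stayed below that of protein-coding TSSs in every alternative for which that ratio was run. It stayed above that of distal bases with the stricter lists, 250 and 1000 bp windows, equal numbers of peaks and each library alone, the settings for which that ratio was run. With the stricter peak lists the mean open share over both libraries was 9.52%, against 14.8%, and its ratio to protein-coding TSSs was 0.217, against 0.302. The ratio to distal bases was then 10.6, against 7.93, the strength ratio 0.489, against 0.367, and the footprint share 95.4%, against 87.4%. With a 1000 bp window the open share was 18.2% and the ratio to distal bases 5.16, and with a 250 bp window that ratio was 12.1 and the footprint share 84.8%. Gene 5′ ends alone gave a ratio to protein-coding TSSs of 0.230, and the GC-weighted protein-coding share one of 0.548. Equal numbers of strongest peaks gave a ratio to distal bases of 8.62 and open shares of 12.8% in replicate 1 and 12.6% in replicate 2. Counting footprints inside the TSS's own peak gave 83.5%. Each library alone gave an open share of 12.6 to 17.1%, ratios of 0.269 to 0.335 and 7.46 to 8.41, a strength ratio of 0.286 to 0.448, a footprint share of 85.7 to 89.2% and FDR-called bases at 2.03 to 2.45% of closed TSSs. The cause of these shifts was not tested. The other alternatives run moved these results by less than 1 SD between libraries, an SD that rests on 2 libraries and is a loose measure. With GC counted over 500 bp on either side of the TSS, the open share in the highest GC bin was 76.1%, against 59.0%. In the bin under 40% GC the lincRNA share was then 2.98% and 2.46%, above the protein-coding 2.25% and 1.78%, with overlapping intervals. No paired analysis was possible because the series has 1 group. Depth is unknown, so a closed TSS is one without a listed peak. tRNA, ribosomal RNA and other repeated sequence limits what reads can be placed, and how such reads were treated is not given in the sources used here.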

Other observations

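Members near another start differed from the rest. A TSS of another noncoding gene type (neither lincRNA nor protein-coding) lay within 500 bp of 207 members, which were open at 37.7% in replicate 1 and 26.6% in replicate 2, against 16.3% and 12.1% of the 6032 members without one. A RefSeq mRNA start lay within 500 bp of 122 members, open at 39.3% and 37.7%, against 16.6% and 12%. Among the 508 genes open in both libraries, 28 had such an mRNA start. These members lie near a coding start in RefSeq's annotation though not in that of GENCODE M21.

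By chromosome the share of members open in both libraries ran between 4.33% on chromosome 8 and 16.4% on chromosome 13.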
